A study of Mus musculus with 36 samples.

Results

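The genes followed here encode the matrix protein fibronectin and enzymes and inhibitors that remodel the extracellular matrix. Fn1 encodes fibronectin, Plau and Plat the plasminogen activators uPA and tPA, Mmp2 the metalloproteinase gelatinase A, Timp1, Timp2 and Timp3 the tissue inhibitors of metalloproteinases, and Lox and Loxl2 lysyl oxidases that cross-link collagen and elastin. They were taken by name, through their Ensembl identifiers, as 9 of the 49671 genes in a table of raw read counts, and all 9 were among the 17702 genes that passed a filter on low counts and were tested. The rule that lists them uses no measured value, but they were chosen with earlier results of these data known. The shares of all genes given beside their counts are therefore a description and not a test.

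The 36 RNA-seq libraries came from mouse embryonic stem cells (mESCs; strain/genotype 129m wt), all cultured in serum and without any genetic change, on soft or stiff StemBond hydrogels or on tissue culture plastic (TCP). StemBond hydrogels are polyacrylamide gels to which extracellular matrix protein is covalently tethered. LIF, a cytokine that sustains self-renewal, and PD03, an inhibitor of the kinase MEK that activates ERK, were added alone, together or not at all. The design asked how substrate stiffness acts on mESCs and whether its effect depends on these signals. Of the 11 groups, soft and stiff serum + LIF were collected at 24 h with 3 libraries each. The other 9 were collected at 48 h: plastic in serum + LIF, and the soft and the stiff hydrogel each in plain serum, with LIF, with PD03 or with LIF and PD03 together, with 3 libraries each except for 6 in soft serum + PD03. Library numbers below are only names, since the columns gave the group alone. Nothing in the labels said whether libraries of a group came from separate cultures, so the p-values measure the spread between these libraries, which may be technical.

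Cells lay down fibronectin as a secreted protein that integrins pull into fibrils, and the fibrils form a scaffold on which other matrix proteins assemble. Plasminogen activators convert plasminogen to plasmin, which cuts fibronectin and activates metalloproteinases, while TIMPs bind metalloproteinases and block them; TIMP2 also takes part in the activation of pro-MMP2 at the cell surface, together with the membrane protease MMP14. Lysyl oxidases stiffen the matrix by joining collagen and elastin chains. Fibronectin that coats a culture surface is protein and adds no RNA, so Fn1 reads came from the cells.

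Levels are given in CPM, the read count as a share of the scaled library size. Total counts were between 10405696 and 26635239 per library, and counting error alone therefore weighed most on the genes with few reads. Plau had 4 to 38 reads per library, Lox 4 to 130 and Plat 9 to 107, against 12859 to 60242 for Fn1. All 6 embryonic stem cell markers of a list (summed level 1781 to 3309 CPM per library) were above 1 CPM on average in every group. At 24 h all libraries of both substrates were in the first sequencing pool, but at 48 h nearly all stiff libraries were in the second pool and nearly all soft libraries in the third, so that at 48 h stiffness and pool largely cannot be told apart. Because the columns did not show single samples, the fit was repeated with pool as a term for each of the 45 possible assignments of pools to columns.

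Among the promoter sequences at hand (RefSeq, GRCm38.p6, windows of 300 bases around the gene start), 3 of the 9 genes had an entry. These were the inhibitors Timp1, Timp2 and Timp3, and the 2 with a long enough stretch before the first annotated exon are shown. The stretches stop where annotated exons begin, and the Timp2 window, which overlaps annotated exons from its first base, is not shown. Capitals mark letters of searched motifs, read on both strands: TGANTCA, the AP-1 motif, GGAATG, the TEAD motif, and GGGCGG, the Sp1 motif.
Timp1, chrX:20869916-20870165, plus strand: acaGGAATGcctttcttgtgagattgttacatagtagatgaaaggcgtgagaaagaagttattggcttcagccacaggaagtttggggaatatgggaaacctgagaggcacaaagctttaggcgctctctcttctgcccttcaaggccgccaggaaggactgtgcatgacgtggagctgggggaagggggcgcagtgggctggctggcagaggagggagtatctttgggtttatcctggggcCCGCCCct
Timp3, chr10:86300162-86300371, plus strand: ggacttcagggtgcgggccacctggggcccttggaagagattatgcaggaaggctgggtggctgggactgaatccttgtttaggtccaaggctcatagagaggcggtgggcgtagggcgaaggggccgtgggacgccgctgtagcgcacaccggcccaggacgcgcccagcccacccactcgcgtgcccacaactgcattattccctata
The whole Timp1 window of 300 bases held 1 TEAD motif and 1 Sp1 motif, the Timp2 window 1 Sp1 motif and the Timp3 window 2 Sp1 motifs, both beyond the stretch shown. No AP-1 motif was found in these 3 windows. Among 32851 promoter windows of the same length, 7.81% held the AP-1 motif, 14.7% the TEAD motif and 35.7% the Sp1 motif, so that these matches are a description of the letters and not of a bound site.

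On the mouse build GRCm38, Fn1 lies on chromosome 1 (71585520 to 71653200, minus strand), Plau on chromosome 14 (20836660 to 20843385), Plat on chromosome 8 (22757727 to 22782844) and Mmp2 also on chromosome 8 (92827291 to 92853420). Timp1 lies on chromosome X (20870166 to 20874735), Timp2 on chromosome 11 (118301069 to 118355740, minus strand) and Timp3 on chromosome 10 (86300372 to 86349506). Lox lies on chromosome 18 (52516067 to 52529867, minus strand) and Loxl2 on chromosome 14 (69609068 to 69695834). Timp1 and Timp3 sit inside genes of the opposite strand, Syn1 and Syn3, which encode synapsins. Timp1 shared 0 exon bases with Syn1, whereas 1733 of the 8144 exon bases of Timp3 (21.3%) were also exon of Syn3; the strand setting of the counting was not stated, and Syn3 itself had only 5 to 38 reads per library. Antisense annotation covered 2.5% of the exon bases of Fn1, 5.57% of those of Loxl2 and 0.628% of those of Lox.

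Fn1 was by far the most abundant of these transcripts. Per kilobase of exon, its group means were between 87.7 and 203 CPM, followed by Timp1 with 17.9 to 31.5 CPM per kilobase. Timp2 had 1.19 to 5.94, Timp3 0.803 to 3.92, Mmp2 1.22 to 2.99 and Loxl2 0.924 to 2.12 CPM per kilobase. Lox (0.0976 to 1.05), Plau (0.153 to 0.633) and Plat (0.161 to 0.626) were the lowest. RNA of all 9 genes was thus found in these bulk cultures, which does not show the cells that held it. The inhibitor Timp1 was the only member besides Fn1 above 10 CPM per kilobase in every group.

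**Figure D1:**
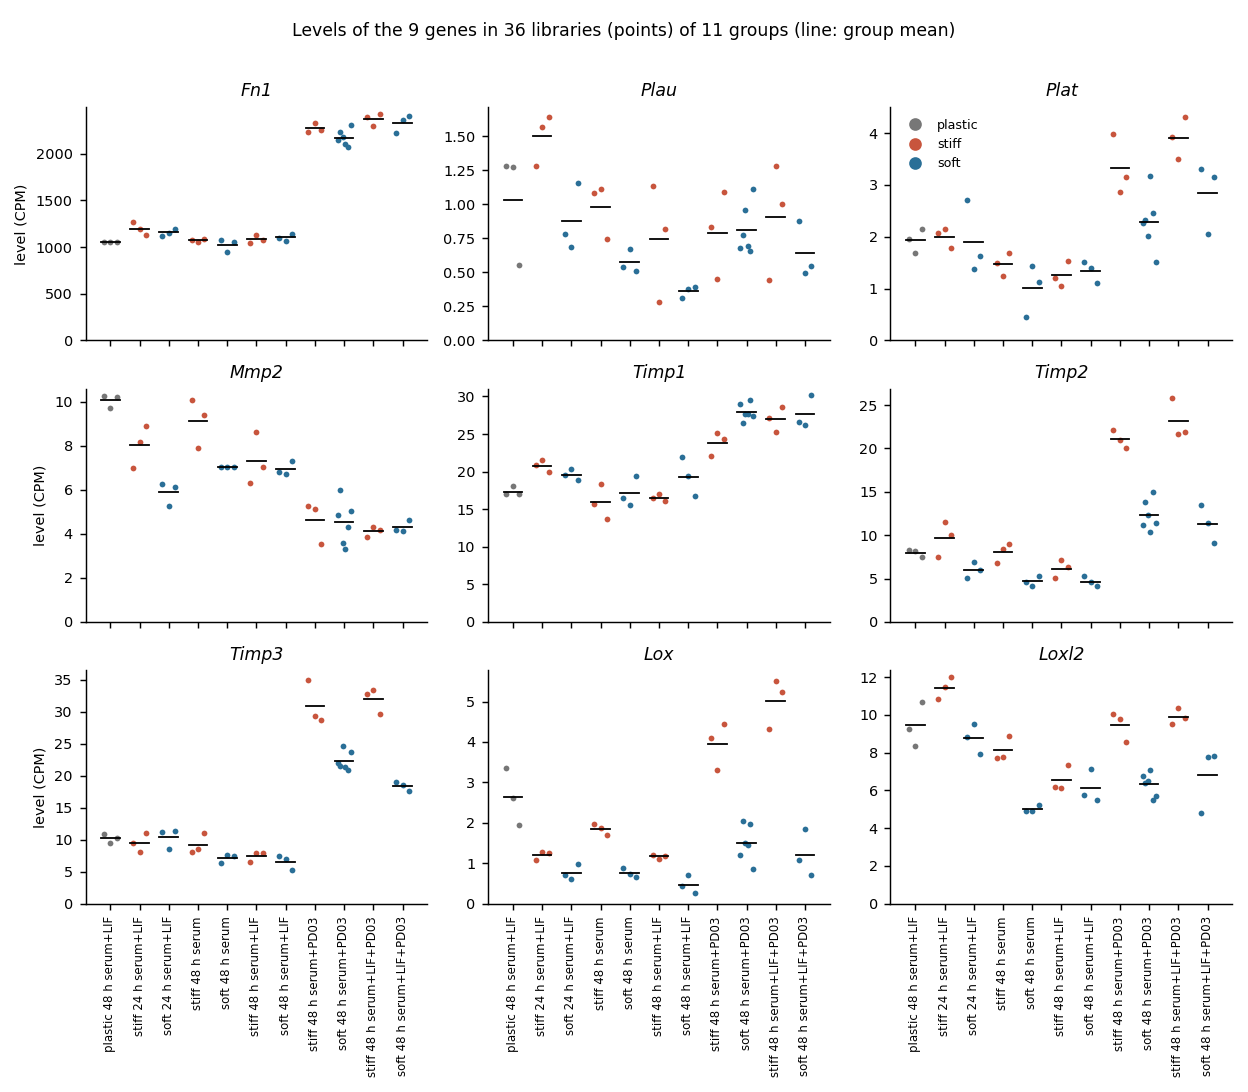
Level in CPM (linear axis from 0, a separate scale for each gene) of the 9 genes in each library (points) of the 11 groups, with the group mean as a line. Fn1 lies between 2076 and 2423 CPM in the libraries with PD03 and between 951 and 1264 CPM in all others, and Timp2, Timp3 and Lox are highest on stiff hydrogels with PD03.

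The order of the groups differed between the genes. For Fn1 the 4 groups with PD03 (means of 2173 to 2370.4 CPM) stood above the 7 others (1024 to 1196 CPM) without overlap, and within each of these sets neighbouring groups overlapped. Timp2 and Timp3 were highest on stiff hydrogels with PD03, then on soft hydrogels with PD03, with no overlap between these substrates. Mmp2 ran the other way, with the highest mean on plastic (10.1 ± 0.284 CPM; SD, n = 3) and the 4 lowest in the groups with PD03 (4.13 to 4.65 CPM), which overlapped with each other. Lox ranged from 5.02 ± 0.619 CPM (n = 3) on stiff in serum + LIF + PD03 to 0.4664 ± 0.220 CPM (n = 3) on soft at 48 h in serum + LIF. Loxl2 was highest on stiff at 24 h (11.4 ± 0.564 CPM, n = 3), above all other groups, and had its lowest mean on soft at 48 h in serum (4.99 ± 0.179 CPM, n = 3), where its values overlapped with those on soft in serum + LIF + PD03.

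Soft against stiff hydrogel was compared within each medium and time. Over the mean of the 5 soft and stiff pairs, 5 of the 9 genes were lower on soft: Lox, Timp2, Plau, Loxl2 and Timp3. Among all genes tested, 8.74% were lower in this mean and 17.1% changed in either direction. Lox fell most, to 0.396 times its stiff level, followed by Timp2 at 0.603, Plau at 0.663, Loxl2 at 0.725 and Timp3 at 0.791 times. Fn1 itself, the most abundant of them, was at 0.975 times its stiff level, and its 95% interval on the log2 scale ran from -0.08 to 0.00 (adjusted p = 0.223). The median log2 difference of the 9 genes was -0.34, beside 0.00 for all genes tested.

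At 24 h in serum + LIF, where both substrates shared a pool, 1 of the 9 genes was called, Timp2, against a background of 3.55%. Timp2 RNA was at 7.50, 11.5 and 10.04 CPM in the stiff libraries and at 5.05, 6.86 and 6.01 CPM in the soft ones. Every soft library lay below every stiff library, with a log2 difference of -0.69 ± 0.16 (SE; adjusted p = 0.00524). The call rested on single libraries, since it was lost without stiff library 2 (-0.55, adjusted p = 0.0872) or without soft library 1 (-0.59, adjusted p = 0.0545). Loxl2, Mmp2, Lox and Plau missed the threshold, with log2 differences of -0.39, -0.45, -0.63 and -0.75 (adjusted p between 0.103 and 0.42). Their values did not overlap between the substrates either, although Plau and Lox had few reads. The share of all genes without overlap was not counted, here or in the later comparisons.

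At 48 h in serum + LIF, 0 of the 9 genes were called by edgeR and 0 by DESeq2, against a background of 0.78%. In edgeR 4 (Plau, Timp1, Timp2 and Lox) had an unadjusted p under 0.05. The share of all genes at that unadjusted level was not computed, so this count has no background. Lox came nearest, with 1.21, 1.11 and 1.18 CPM in the stiff libraries and 0.439, 0.698 and 0.262 CPM in the soft ones. The groups did not overlap, and the log2 difference was -1.31 ± 0.41 (adjusted p = 0.112). Timp2 and Loxl2 overlapped between the substrates.

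In serum at 48 h, 3 of the 9 genes were lower on soft, against a background of 4.85% of genes called and 2.77% lower. Lox was at 1.98, 1.87 and 1.69 CPM on stiff and at 0.888, 0.721 and 0.663 CPM on soft. Every soft value lay below every stiff value, and the log2 difference was -1.29 ± 0.32 (adjusted p = 0.0068). Loxl2 was at 7.70, 7.77 and 8.87 CPM on stiff and at 4.88, 4.90 and 5.201 CPM on soft, again without overlap (-0.69 ± 0.15, adjusted p = 0.00119). Timp2 showed the same order, with 6.80, 8.46 and 9.003 CPM on stiff and 4.64, 4.18 and 5.30 CPM on soft (-0.76 ± 0.16, adjusted p = 0.00165). With pool as a term, Timp2 passed the threshold in 18, Loxl2 in 13 and Lox in 9 of the 45 assignments.

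In serum + PD03, 4 of the 9 genes were lower on soft, against backgrounds of 5.55% called and 3.42% lower. Timp2 was at 22.2, 20.99 and 20.04 CPM on stiff, and in the 6 soft libraries its lowest, median and highest values were 10.4, 11.9 and 15.0 CPM. Timp3 was at 35.0, 29.3 and 28.6 CPM on stiff and had a soft range of 20.8 to 24.7 CPM with a median of 21.7 CPM. Both inhibitors were thus lower in all 6 soft libraries than in any stiff library, Timp2 by -0.78 ± 0.12 (adjusted p = 2.51e-06) and Timp3 by -0.47 ± 0.09 (adjusted p = 0.000316) on the log2 scale. Lox was at 4.10, 3.31 and 4.43 CPM on stiff, with a soft range of 0.861 to 2.03 CPM and a median of 1.47 CPM. Its difference was -1.41 ± 0.23 (adjusted p = 1.31e-05), again without overlap. Loxl2 was at 10.1, 9.78 and 8.54 CPM on stiff, with a soft range of 5.46 to 7.08 CPM and a median of 6.44 CPM. It also did not overlap, with a difference of -0.59 ± 0.12 (adjusted p = 0.000793). With pool as a term, Timp2 passed in 45, Lox in 42, Timp3 in 40 and Loxl2 in 27 of 45 assignments.

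In serum + LIF + PD03 the same 4 genes were lower on soft, against backgrounds of 7.61% called and 4.82% lower. Lox was at 4.32, 5.51 and 5.23 CPM on stiff and at 1.07, 1.84 and 0.708 CPM on soft. This was the largest soft to stiff difference among the 9 genes, with a soft level 0.243 times the stiff level (log2 -2.04 ± 0.27, adjusted p = 1.19e-07). Timp2 was at 25.8, 21.7 and 21.9 CPM on stiff and at 13.5, 11.4 and 9.05 CPM on soft (-1.03 ± 0.13, adjusted p = 8.58e-08). Timp3 was at 32.8, 33.3 and 29.7 CPM on stiff and at 19.0, 18.5 and 17.5 CPM on soft (-0.80 ± 0.10, adjusted p = 1.38e-07). None of these 3 genes overlapped between the substrates. Loxl2 was at 9.49, 10.4 and 9.85 CPM on stiff and at 4.81, 7.77 and 7.79 CPM on soft. The difference of -0.55 ± 0.14 (adjusted p = 0.00554) depended on the lowest soft library, library 1, without which it was -0.35 (adjusted p = 0.133). With pool as a term, Timp3 passed in 45, Timp2 and Lox in 42 each and Loxl2 in 3 of 45 assignments.

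**Figure D2:**
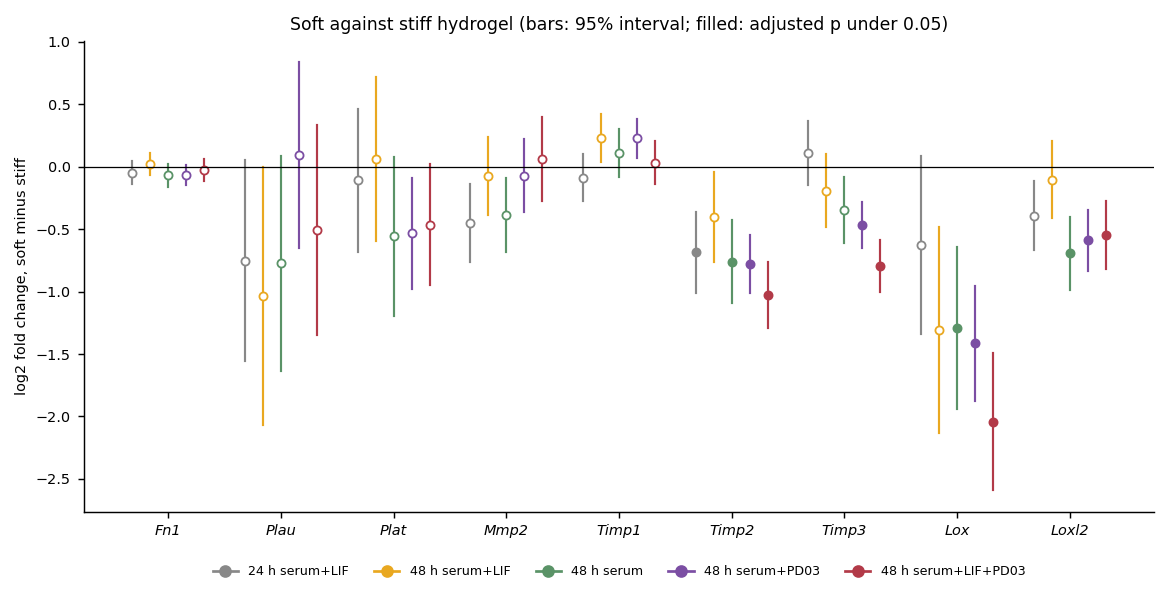
Log2 fold change of soft over stiff for each gene in each of the 5 media and times (colours), with 95% intervals and filled points where the adjusted p is under 0.05. Lox and Timp2 lie below 0 in all 5, while Fn1 lies between -0.07 and 0.02.

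Of the inhibitors, Timp1 was not called lower on soft. Its log2 difference over the mean of the 5 pairs was 0.10 ± 0.04 (adjusted p = 0.0678), and in serum + PD03 its soft libraries (26.4 to 29.6 CPM) all lay above the stiff ones (22.1, 25.1 and 24.4 CPM; log2 0.23, adjusted p = 0.0705, or 0.0478 when only the groups compared were fitted). The mean passed the threshold in 4 of the fits that left out a library, without stiff serum library 2 (0.13, adjusted p = 0.0183), soft serum library 2 (0.12, 0.0391), soft serum + LIF library 3 (0.13, 0.0212) or soft serum + LIF + PD03 library 2 (0.11, 0.0499). Timp2 and Timp3 had means of -0.73 ± 0.07 (adjusted p = 3.04e-12) and -0.34 ± 0.05 (adjusted p = 3.59e-06), and no left-out library ended either call. With pool as a term, Timp2 passed in 45 and Timp3 in 20 of 45 assignments. Among the cross-linking enzymes, Lox had a mean of -1.33 ± 0.14 (adjusted p = 1.29e-10; 42 of 45 assignments) and Loxl2 of -0.46 ± 0.06 (adjusted p = 6.56e-08; 26 of 45).

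The proteases were less clear. Plau was lower on soft over the mean of the 5 pairs, by -0.59 ± 0.19 (adjusted p = 0.0214), but at group means of 0.362 to 1.499 CPM. The call was lost without stiff serum + LIF library 1 at 48 h (-0.52, adjusted p = 0.0602), without stiff serum + LIF + PD03 library 2 (-0.53, 0.0507) or without stiff serum + PD03 library 3 (-0.53, 0.052), and it passed in 0 of 45 assignments with pool as a term. Plat (-0.32 ± 0.13, adjusted p = 0.0699) and Mmp2 (-0.18 ± 0.07, adjusted p = 0.0579) missed the threshold. Plat passed without soft 24 h library 1 (-0.38, adjusted p = 0.0292), soft serum library 2 (-0.39, 0.0254) or soft serum + PD03 library 4 (-0.34, 0.0464). Mmp2 passed when any of 6 libraries was left out (adjusted p from 0.0249 to 0.0469): library 1 of stiff serum + LIF at 24 h or at 48 h, library 2 of stiff serum, library 3 of stiff serum + PD03, or library 2 or 6 of soft serum + PD03.

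A list of fibroblast markers (Col1a1, Col1a2, Col3a1, Dcn, Lum, Postn, Thy1 and Twist2), fixed to look for feeder cells, also differed between the substrates, and its part in these results was not tested. Its summed level was 24.1 to 35.8 CPM on soft and 50.8 to 58.0 CPM on stiff at 24 h, 22.4 to 29.7 against 47.2 to 53.5 CPM in serum, 24.7 to 30.2 against 32.8 to 39.9 CPM in serum + LIF, 30.2 to 41.5 against 67.3 to 77.6 CPM in serum + PD03 and 27.4 to 41.3 against 85.2 to 91.5 CPM in serum + LIF + PD03. Over the mean of the 5 pairs 4 of its 6 tested genes were lower on soft (Col1a1, Col1a2, Col3a1 and Dcn). Within this sum Col1a1, which encodes a chain of type I collagen, had group means of 11.99 to 76.4 CPM. Lum was listed at 0 in every library of 5 groups and had a mean of at most 0.119 CPM in the others. Of the 8 listed genes, 3 to 5 were above 1 CPM on average in each group. In bulk RNA, fewer cells of a type and less RNA per cell cannot be told apart.

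Against plastic in serum + LIF at 48 h, 6 of the 9 genes were lower on soft and 3 on stiff. The backgrounds were 11.8% called and 6.47% lower for soft, and 5.54% called and 3.59% lower for stiff, and both comparisons share the plastic libraries. Lox was at 3.34, 2.60 and 1.93 CPM on plastic, above all soft and stiff libraries in this medium. Its soft level was 0.179 times the plastic level (log2 -2.48 ± 0.38, adjusted p = 4.34e-07) and its stiff level 0.442 times (-1.18 ± 0.30, adjusted p = 0.0084). Without plastic library 1, the highest, the stiff difference was -0.96 (adjusted p = 0.0981).

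Timp3 was at 10.8, 9.50 and 10.2 CPM on plastic, 7.40, 6.92 and 5.30 CPM on soft and 6.54, 7.86 and 7.93 CPM on stiff. Plastic lay above both hydrogels without overlap, by -0.64 ± 0.14 for soft (adjusted p = 0.0008) and -0.45 ± 0.14 for stiff (adjusted p = 0.0378). Loxl2 was at 9.25, 8.35 and 10.7 CPM on plastic, 5.77, 7.11 and 5.49 CPM on soft and 6.19, 6.12 and 7.32 CPM on stiff. It too was lower on soft (-0.62 ± 0.15, adjusted p = 0.00221) and on stiff (-0.51 ± 0.14, adjusted p = 0.0212). The stiff calls were fragile, Timp3 being lost without plastic library 1 or 3 or any stiff library (adjusted p 0.0595 to 0.22) or with library totals in place of TMM (0.074) and Loxl2 without plastic library 1 or 3 or stiff library 1 or 2 (0.0542 to 0.157). Timp2 was at 8.24, 8.23 and 7.46 CPM on plastic and at 5.27, 4.57 and 4.12 CPM on soft, a difference of -0.78 ± 0.17 (adjusted p = 0.00107).

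Mmp2 was at 10.2, 9.74 and 10.2 CPM on plastic and at 6.84, 6.73 and 7.32 CPM on soft (-0.53 ± 0.15, adjusted p = 0.0127). All plastic libraries lay above all soft ones, but the call was lost without plastic library 1 or soft library 1 or 2 (adjusted p 0.0504 to 0.0535). Against stiff, Mmp2 gave -0.46 (adjusted p = 0.0604), with -0.58 (adjusted p = 0.0328) without stiff library 2 and adjusted p = 0.0404 when only the groups compared were fitted. Plau was lower on soft than on plastic by -1.52 ± 0.50 (adjusted p = 0.0268), a call that was lost without plastic library 1 or 2 or any soft library (adjusted p 0.0581 to 0.124), and without the filter on low counts (adjusted p = 0.0605). Fn1, Plat and Timp1 were not called in either comparison. The plastic libraries were all in the first pool, and with pool as a term the soft calls passed in 18 of 45 assignments for Lox, 6 for Timp2, 3 for Plau, 2 for Timp3, 1 for Mmp2 and 0 for Loxl2, and the stiff calls in 0. The fibroblast markers summed to 69.8 to 79.8 CPM on plastic, above both hydrogels in this medium, and their part was not tested.

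PD03 moved more of the 9 genes than the other factors did. Over the mean of its 4 settings (soft or stiff, with or without LIF), 7 of the 9 genes rose, Fn1, Plat, Timp1, Timp2, Timp3, Lox and Loxl2, and Mmp2 fell. Across all genes tested 74.3% were called in this mean, 37.2% higher and 37.1% lower, so that being called was the usual state of a gene. Timp3 rose 3.36-fold, Timp2 2.82-fold, Lox 2.59-fold, Plat 2.38-fold, Fn1 2.13-fold, Timp1 1.55-fold and Loxl2 1.25-fold, while Mmp2 went to 0.579 times its level without PD03. The median log2 change of the 9 genes was 1.09, beside 0.00 over all genes. In the separate settings the counts were 8 of 9 on soft without LIF (background 57.5%), 7 on stiff without LIF (55.8%), 7 on soft with LIF (54.4%) and 8 on stiff with LIF (56.2%). Apart from 2 of the 6 soft serum + PD03 libraries and 1 of the 3 stiff serum + LIF libraries, the libraries compared within a substrate shared a pool.

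Fn1 was at 1071, 951 and 1051 CPM on soft in serum, and its 6 soft libraries in serum + PD03 had a lowest, median and highest value of 2076, 2164 and 2306 CPM. On stiff it was at 1078, 1056 and 1087 CPM in serum and at 2234, 2323 and 2252 CPM in serum + PD03. No library without PD03 came near those with it, on either substrate. With LIF it went from 1099.7, 1068 and 1138 to 2225, 2357 and 2402 CPM on soft, and from 1048, 1128 and 1079 to 2393, 2295 and 2423 CPM on stiff. The 4 log2 changes were 1.08 ± 0.04, 1.08 ± 0.05, 1.08 ± 0.05 and 1.13 ± 0.05, and their mean was 1.09 ± 0.02 (adjusted p = 1.75e-40).

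The metalloproteinase Mmp2 and its inhibitors moved in opposite directions. Mmp2 fell by 0.79 on the log2 scale in the mean (SE 0.08, adjusted p = 3.91e-13). On stiff in serum it was at 10.1, 7.90 and 9.41 CPM, and with PD03 at 5.25, 5.16 and 3.53 CPM. On soft in serum it was at 7.05, 7.06 and 7.04 CPM, and with PD03 its 6 values ran from 3.34 to 6.005 CPM with a median of 4.598 CPM. Neither pair overlapped, and the log2 changes were -0.97 ± 0.16 and -0.66 ± 0.14 (adjusted p = 4.23e-07 and 3.62e-05). With LIF they were -0.83 ± 0.16 on stiff and -0.69 ± 0.16 on soft (adjusted p = 1.55e-05 and 0.000281).

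Timp3 rose by 1.75 ± 0.06 (adjusted p = 4.28e-31) and Timp2 by 1.49 ± 0.08 (adjusted p = 4.64e-24) in the mean, and no library with PD03 overlapped its counterpart without. On stiff in serum Timp3 was at 8.11, 8.53 and 11.03 CPM and Timp2 at 6.80, 8.46 and 9.003 CPM, all below the PD03 libraries named above. The changes were largest on stiff with LIF, 2.09 ± 0.12 for Timp3 and 1.91 ± 0.15 for Timp2, and smallest on soft with LIF, 1.49 ± 0.13 and 1.28 ± 0.17. Whether these differed is the test of stiffness by PD03 given further on. Timp1 rose less, by 0.63 ± 0.04 (adjusted p = 3.88e-18), for example from 15.7, 18.3 and 13.7 to 22.1, 25.1 and 24.4 CPM on stiff without LIF.

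Lox rose by 1.37 ± 0.16 in the mean (adjusted p = 2.3e-11). On soft without LIF its range overlapped between the media (0.663 to 0.888 CPM in serum, 0.861 to 2.03 CPM with PD03; 0.95 ± 0.29, adjusted p = 0.00414). On stiff it rose by 1.07 ± 0.26 without LIF and by 2.10 ± 0.29 with LIF (adjusted p = 0.000467 and 5.71e-09), without overlap. On soft with LIF the rise of 1.36 ± 0.40 (adjusted p = 0.00201) was 0.91 (adjusted p = 0.0632) without soft serum + LIF + PD03 library 2. Loxl2, by contrast, changed little, with a mean of 0.32 ± 0.07 (adjusted p = 4.82e-05). It passed on stiff with LIF (0.59 ± 0.14, adjusted p = 0.000323) and on soft without LIF (0.34 ± 0.13, adjusted p = 0.0251), the latter not without soft serum library 1 (0.31, 0.0888) or 2 (0.31, 0.0826) or soft serum + PD03 library 4 (0.30, 0.0544), nor without the filter on low counts (adjusted p = 0.0565), and it passed in 28 of 45 assignments with pool as a term. On stiff without LIF (0.23, adjusted p = 0.154) and on soft with LIF (0.14, adjusted p = 0.436) it missed the threshold, the latter passing without soft serum + LIF + PD03 library 1 (0.34, adjusted p = 0.0493).

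Of the plasminogen activators, Plat rose by 1.25 ± 0.14 (adjusted p = 1.41e-11), with changes of 1.08 to 1.61 over the 4 settings. On stiff with LIF it went from 1.21, 1.04 and 1.54 to 3.92, 3.49 and 4.30 CPM, without overlap. Plau was not called, with a mean of 0.31 (95% interval -0.13 to 0.75, adjusted p = 0.193) and estimates from -0.37 to 0.81. Beside these changes, the formative epiblast markers summed to 149 to 174 CPM in the libraries with PD03 and to 499 to 737 CPM in the 48 h hydrogel libraries without it, the embryonic stem cell markers to 2743 to 3309 against 1781 to 2289 CPM, and the primitive streak markers to 16.0 to 19.8 against 24.1 to 30.1 CPM. The summed primitive and parietal endoderm markers were at 93.3 to 146 against 67.5 to 102 CPM, although 5 of the 8 genes of that list fell (Cubn, Foxa2, Gata4, Pdgfra and Sox7; median -0.47) and 2 rose (Dab2 and Gata6). The fibroblast markers, whose sums are given above for each group, were on stiff hydrogels with PD03 at 85.2 to 91.5 against 32.8 to 39.9 CPM with LIF and 67.3 to 77.6 against 47.2 to 53.5 CPM without, with 3 of the 6 tested genes rising (Col1a1, Col1a2 and Postn) and 3 falling (Col3a1, Dcn and Thy1) in the mean of the 4 settings. Within the formative and streak lists, too, genes moved both ways. On soft with and without LIF and on stiff without it, Otx2 of the formative list rose while the other 5 genes fell. In these settings Snai1 of the streak list rose, while Eomes and T fell. The part of such shifts was not tested.

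**Figure D3:**
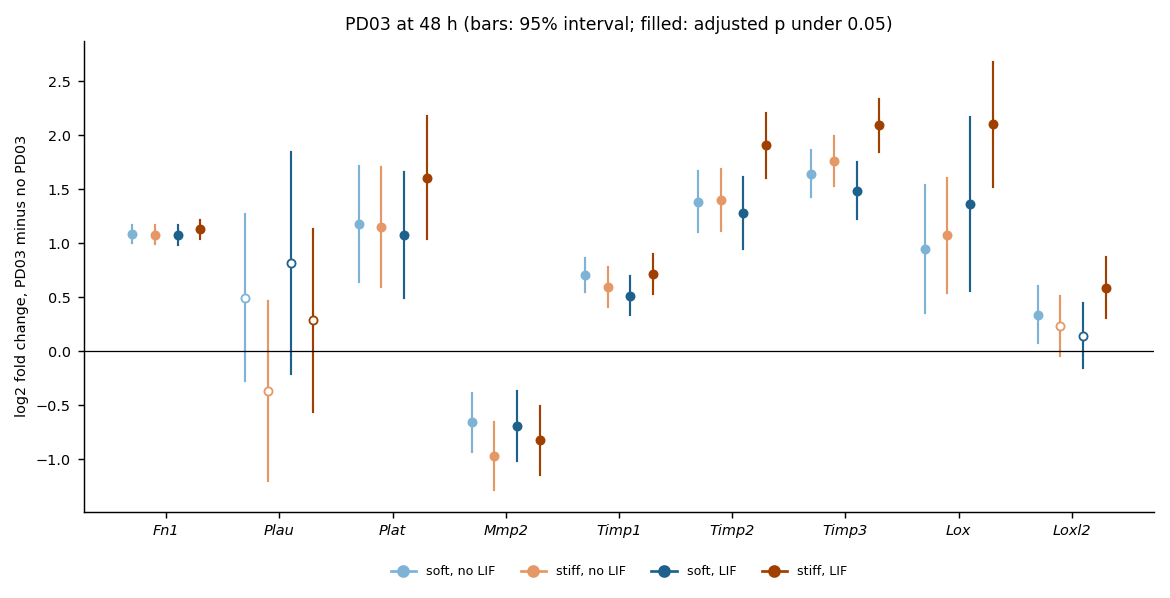
Log2 fold change on adding PD03 at 48 h for each gene on soft (blue) and stiff (orange) hydrogels without (light) and with LIF (dark), with 95% intervals and filled points where the adjusted p is under 0.05. Fn1 sits at 1.08 to 1.13 in all 4 settings, Mmp2 lies below 0 in all 4, and the intervals of Plau cross 0.

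Within each library, ratios between 2 members do not depend on library scaling. Per kilobase, Timp2 RNA was 0.578 to 1.04 times Mmp2 RNA in the group means without PD03. With PD03 it was 2.29 ± 0.555 (n = 3) on soft with LIF, 2.43 ± 0.513 (n = 6) on soft without, 4.88 ± 0.770 (n = 3) on stiff with LIF and 4.03 ± 0.766 (n = 3) on stiff without. The Timp3 to Mmp2 ratio went likewise, from 0.391 to 0.723 without PD03 to 1.77 and 2.13 on soft and 3.21 and 2.82 on stiff. In both ratios every library with PD03 lay above every library without it. The ratio of Lox to Loxl2 ran from 0.0837 on soft at 48 h in serum + LIF to 0.572 on stiff in serum + LIF + PD03. It was lower on soft than on stiff in each of the 5 pairs of group means. Single libraries overlapped at 24 h (soft up to 0.140, stiff from 0.113) and in serum + PD03 (soft up to 0.407, stiff from 0.383). A ratio shows unequal change and not which of its members changed.

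**Figure D4:**
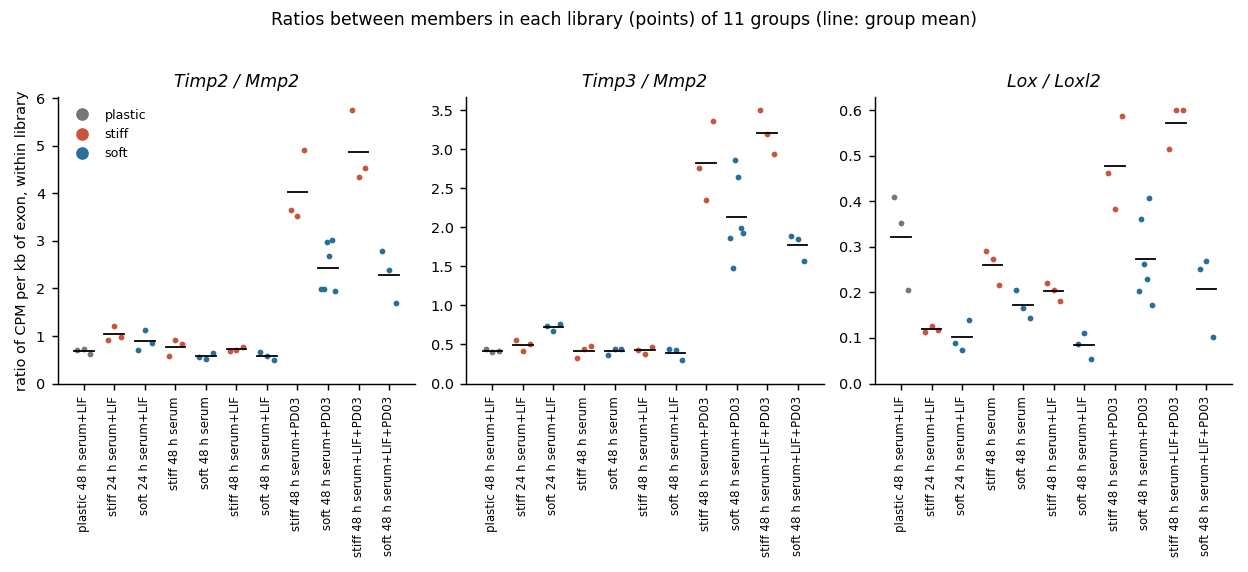
Ratio of CPM per kilobase of exon within each library (points; line, group mean; linear axis from 0) for Timp2 to Mmp2, Timp3 to Mmp2 and Lox to Loxl2. The first ratio has group means of 0.578 to 1.04 without PD03 and of 2.29 to 4.88 with it.

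Adding LIF left 0 of the 9 genes called by edgeR in each of the 4 settings at 48 h and in their mean. Few genes were called at all: 0.0169% on soft and 1.41% on stiff without PD03, 0.107% on soft and 0.514% on stiff with PD03, and 1.85% in the mean. DESeq2 called 0 members in the settings and 1 in the mean, Fn1, whose edgeR value was 0.07 ± 0.02 (adjusted p = 0.0873). At an unadjusted p under 0.05 edgeR gave 1, 5, 2 and 1 members in these settings and 4 in the mean, Fn1, Timp1, Timp3 and Lox. These counts have no background, since the share of all genes at that unadjusted level was not computed. The estimates in the mean ran from -0.32 for Lox (95% interval -0.64 to 0.00) to 0.19 for Plat (-0.09 to 0.47). In edgeR Lox had an unadjusted p of 0.0462 and an adjusted p of 0.39, so that a change of this size was not called.

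Between 24 h and 48 h in serum + LIF, 2 of the 9 genes fell on soft and 5 on stiff. The backgrounds were 24.4% called and 11.4% lower on soft, and 25.6% called and 13% lower on stiff. Loxl2 fell on both, on stiff from 10.9, 11.5 and 11.99 to 6.19, 6.12 and 7.32 CPM (-0.80 ± 0.14, adjusted p = 1.31e-05). On soft it went from 8.80, 9.54 and 7.92 to 5.77, 7.11 and 5.49 CPM (-0.51 ± 0.15, adjusted p = 0.00868), a call lost without soft 24 h library 2 (-0.43, 0.0639) or soft 48 h library 3 (-0.42, 0.0649). The 48 h libraries lay below the 24 h libraries in both cases. Timp3 fell on soft from 11.2, 8.58 and 11.3 to 7.40, 6.92 and 5.30 CPM (-0.66 ± 0.14, adjusted p = 0.00032). On stiff its fall of 0.35 on the log2 scale (adjusted p = 0.041) was lost in 5 of the 6 fits that left out a library, all but the one without stiff 24 h library 2 (adjusted p 0.0556 to 0.272), and when only the groups compared were fitted (0.0534). With library totals in place of TMM, Fn1 (-0.14, adjusted p = 0.0135) and Plau (-1.35, adjusted p = 0.0391) also passed on soft.

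Timp2 fell on stiff from 7.50, 11.5 and 10.04 to 5.05, 7.09 and 6.29 CPM (-0.65 ± 0.16, adjusted p = 0.00116), and Timp1 from 20.9, 21.6 and 20.0 to 16.5, 17.0 and 16.1 CPM (-0.34 ± 0.09, adjusted p = 0.00522). Neither overlapped between the times. Fn1 differed by -0.14 ± 0.05 on stiff (adjusted p = 0.0181), lost without stiff 24 h library 1 (-0.10, 0.196) or stiff 48 h library 1 (-0.11, 0.118) or 3 (-0.14, 0.0613). Plau on stiff missed the threshold (-0.999 ± 0.41, adjusted p = 0.0584) and passed without stiff 48 h library 1 (-1.37, adjusted p = 0.0276). The 48 h libraries were mostly from other pools than the 24 h ones. With pool as a term, the stiff call of Loxl2 passed in 45 of 45 assignments, that of Timp2 in 18, of Fn1 in 15 and of Timp1 and Timp3 in 0, and the soft calls of Timp3 in 7 and of Loxl2 in 0.

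Whether the soft to stiff difference itself depended on PD03, LIF or time was tested with interaction terms. None of the 9 genes was called by edgeR or DESeq2 in any of the 5 terms, which called 0.797% of all genes for PD03 without LIF, 1.07% for PD03 with LIF, 0.0847% for LIF without PD03, 0.00565% for LIF with PD03 and 0.254% for time. At an unadjusted p under 0.05 the counts were 0, 3, 1, 1 and 1, and the share of all genes at that level was not computed. The nearest was Timp3 for PD03 with LIF, whose soft minus stiff difference with PD03, less that without, was -0.60 ± 0.18 on the log2 scale (adjusted p = 0.0952), and it passed without soft serum + LIF library 3 (-0.76, adjusted p = 0.0181) and without the filter on low counts (-0.63, adjusted p = 0.033). Timp2 had -0.62 ± 0.22 (adjusted p = 0.237) and Loxl2 -0.45 ± 0.20 (adjusted p = 0.451) in the same term. The calls of Timp3 in the media with PD03 and not in those without are therefore not shown to differ.

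**Figure D5:**
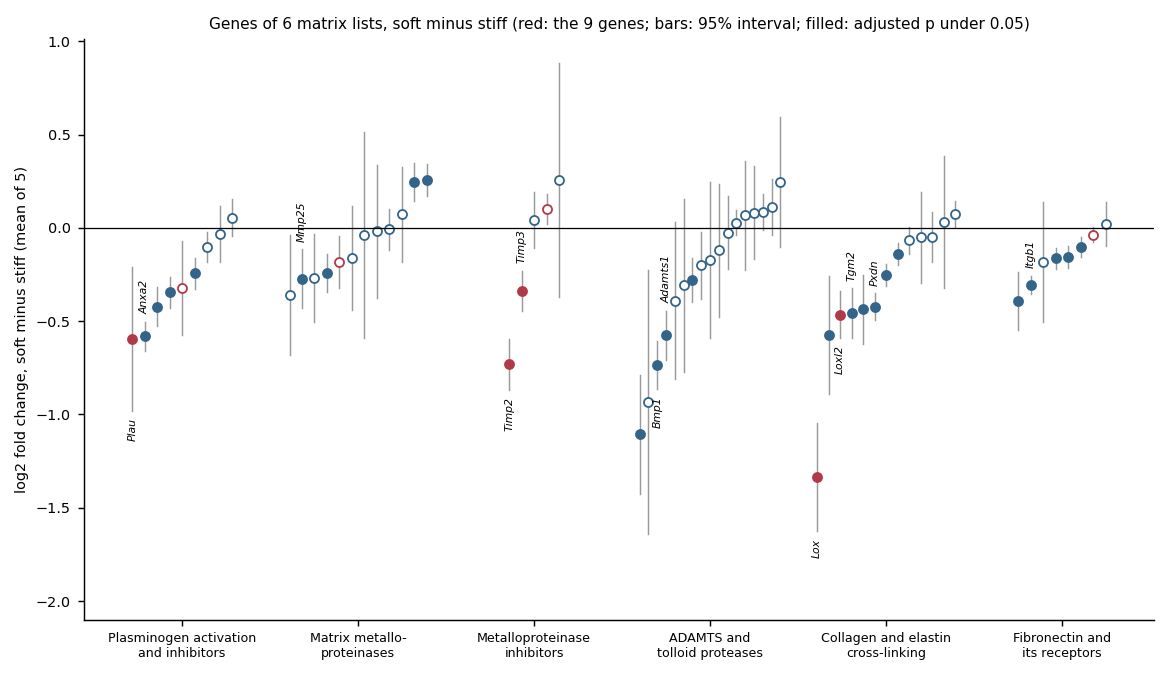
Log2 fold change of soft over stiff (mean of the 5 media and times) for every tested gene of 6 lists of matrix genes, with 95% intervals, filled where the adjusted p is under 0.05 and red for the 9 genes; names are given for part of the filled points. Lox at -1.33 is the lowest of the cross-linking list and Timp2 at -0.73 the lowest of the inhibitor list.

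The 9 genes belong to wider families, whose members were counted in the same way, and of all genes tested 8.74% were lower and 17.1% called in the mean of the 5 pairs. At 48 h stiffness and pool largely cannot be told apart. The fits with pool as a term or with left-out libraries covered the 9 genes only. The calls of other list genes, here and below, were therefore not checked in this way. Of the plasminogen system 5 of 9 tested genes were lower on soft in this mean and none higher (median -0.32, beside 0.00 for all genes), among them Plau, its receptor Plaur (-0.35 ± 0.04, adjusted p = 6.01e-09), the inhibitor Serpine2, and Anxa2, an annexin that binds plasminogen and tPA at the cell surface (-0.58 ± 0.04, adjusted p = 3.81e-17). An activator, its receptor and an inhibitor were thus all among the lower genes. The call of the activator, Plau, was fragile, being lost without single libraries and in every assignment with pool as a term. Of 13 cross-linking and hydroxylating enzymes 8 were lower (median -0.25): Lox, Loxl1, Loxl2, Loxl4, Plod2, Plod3, Tgm2 and Pxdn, the last a peroxidase that cross-links type IV collagen (-0.42 ± 0.04, adjusted p = 2.37e-13). None of the 13 was higher.

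The metalloproteinases went both ways, against the same backgrounds of 8.74% lower and 17.1% called. Of 12 tested, Mmp14 and Mmp25 were lower on soft and Mmp11 and Mmp17 higher (median -0.10). Mmp14, the membrane protease that activates pro-MMP2, was at 0.846 times its stiff level (adjusted p = 0.000314). Of the 5 inhibitors Timp2 and Timp3 were lower and Timp1, Timp4 and Reck not called (median 0.04). Of 17 ADAMTS and tolloid proteases 4 were lower (median -0.17), and Bmp1, the procollagen C-proteinase, which also processes the precursor of lysyl oxidase, was called lower in all 5 pairs and at -0.74 ± 0.06 in the mean (adjusted p = 2.55e-13). Among fibronectin and its receptors 5 of 8 were lower (median -0.16), Itga5, Itga8, Itgav, Itgb1 and Sdc4, with Itgb1, the shared beta chain of most fibronectin receptors, at -0.31 ± 0.02 (adjusted p = 8.85e-15). Fn1 was thus not called in a list of which most receptor genes were.

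With PD03, where 74.3% of all genes were called in the mean, 37.2% higher and 37.1% lower, the lists split as follows. Of the 5 inhibitors 4 rose, Reck, Timp1, Timp2 and Timp3, and Timp4 fell (median 1.21), while 6 of 12 metalloproteinases fell, Mmp2, Mmp9, Mmp14, Mmp24, Mmp25 and Mmp28, and 3 rose (median -0.44). Mmp14 was at 0.5996 times its level without PD03 (adjusted p = 1.21e-16) and Mmp25 at 0.544 times (adjusted p = 5.01e-13), and Mmp15 rose 2.51-fold (adjusted p = 7.32e-26). Reck, a membrane-anchored inhibitor, rose 2.32-fold (adjusted p = 3.88e-19). Of the cross-linking genes 9 of 13 rose (median 0.32), with Tgm2, a transglutaminase that also links fibronectin, at 5.24-fold (adjusted p = 1.04e-33), and Pxdn fell. In the plasminogen list 5 of 9 rose and 3 fell (median 0.31). Anxa2 rose 3.60-fold (adjusted p = 5.52e-38), whereas Plaur went to 0.521 times (adjusted p = 8.78e-24) and Serpini1, the serpin neuroserpin that inhibits tPA, to 0.464 times its level (adjusted p = 4.44e-17). Among the ADAMTS and tolloid proteases 5 of 17 rose and 8 fell (median -0.26), from Adamts8 at 4.62-fold (adjusted p = 8.14e-30) to Adamts1 at 0.204 times (adjusted p = 1.62e-32). The share called in this list was near that over all genes, as it was for the metalloproteinases and the cross-linking genes. Among fibronectin and its receptors 5 of 8 rose and 2 fell (median 0.30), and Itgb3, the beta chain of the vitronectin receptor, rose 4.94-fold (adjusted p = 1.53e-35).

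For the 7 members that reached 5 CPM in a group, the genes with the most similar levels across the 11 groups were sought. By Pearson's r of the group mean log2 CPM, over 10469 genes with a mean of at least 5 CPM, Crxos was most like Fn1 (0.9984), Cast most like Timp3 (0.9882), Acta1 most like Timp2 (0.9833), Nr3c1 most like Mmp2 (0.9858) and Anapc10 most like Timp1 (0.9822). Next came Parm1 and Rhox6 for Fn1, Abhd5 and Iqsec1 for Timp3, Anxa4 and App for Timp2, Khdrbs1 and Ccne2 for Mmp2, and Dppa3 and Ly6g6e for Timp1. For Fn1 2084 genes and for Timp3 1375 genes were above 0.9, while for Lox there were 24, led by Col1a1 (0.9372), Peg3 (0.9347) and Hps5 (0.9309), and for Loxl2 36, with Ccn4 (0.968) and Anxa3 (0.9676) among the highest. These are descriptions over 11 points that share libraries, pools and the split by PD03, and carry no test.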

How the data were processed

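RNA was extracted from the cell cultures, libraries were made with a NuGen kit per the labels, and reads were aligned by the authors with STAR 2.5.2a to mm10 (GRCm38) and counted per Ensembl gene with HTSeq. The authors deposited raw read counts, with no normalisation. The strand setting was not given in the sources used here. Coordinates were taken from a GRCm38 annotation matched by gene identifier.

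Counts of all 36 libraries were fitted in edgeR 4.0.16 (R 4.3.3) with 1 coefficient per group, TMM scaling and filterByExpr, which kept 17702 genes with 99.92% of the counts. Contrasts were tested with the quasi-likelihood test, two-sided, and p-values were adjusted by Benjamini-Hochberg over all 17702 genes, with a threshold of 0.05; every adjusted p is from this test. SE is that of the log2 fold change. DESeq2 1.42.0, other scalings, no filter, only the groups compared, pool terms and left-out libraries were alternatives. The fit was tested before use on data simulated for soft against stiff in serum + LIF + PD03. It recovered 88.5% of 200 changed genes, and 6.35% of its calls were false. The simulation held no pool effect and changed only genes with a mean above 1 CPM, so it could not test pool or lower genes such as Plau.

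The members and gene lists were chosen with earlier results of these data known. Beyond the 9 genes, list members were named with values if they had a mean of at least 5 CPM and passed in the same direction in at least 4 of the 5 soft minus stiff comparisons, or were the 2 of their list that PD03 changed most. For likeness, the 3 genes nearest to a member were named, and 1 gene is not reported here. Other list members, among them Plaur, Mmp14 and Reck with values, were named after their values were seen, to give a count or a role.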

Additional observations from a re-analysis of the deposited data

How the results depend on the processing

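No paired analysis was possible because the columns of the count table carry no replicate number. DESeq2's size factors in place of TMM changed the call or direction of none of the 225 values compared, and the DESeq2 test changed only the mean over LIF, from 0 to 1 gene (Fn1). Pool as a term, over its assignments, was the setting that moved counts most. Its lowest count of the 9 genes was 0 for soft against stiff in serum, 2 in serum + PD03, 1 in serum + LIF + PD03 and 2 in the mean of the 5 pairs. It gave 0 to 2 for soft against plastic, 0 in every assignment for stiff against plastic, at most 1 for the mean over LIF, 0 to 1 for 48 h against 24 h on soft and 1 to 3 on stiff. Plau against plastic on soft changed sign in 1 assignment (0.0359, adjusted p = 1). Library totals without TMM gave 4 genes for 48 h against 24 h on soft, and no filter gave 1 for stiffness by PD03 with LIF. Leaving out each library gave 0 to 1 genes for soft against stiff at 24 h, 0 to 3 for stiff against plastic, 1 to 2 for 48 h against 24 h on soft, 3 to 5 on stiff and 0 to 1 for stiffness by PD03 with LIF. With pool as a term a substrate difference at 48 h is estimated from the few libraries that break the overlap of pool and substrate. Depth limits Plau, Plat and Lox most. The causes were not tested.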
